A study of Mus musculus with 6 samples.

Results

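The 44 genes described here encode the machinery by which homologous chromosomes pair, recombine and synapse in meiosis. They were chosen by name for their known function, at a time when earlier results of these data were known, and the rule itself uses no measured value. All 44 were found among the 55536 genes of the count table, and all 44 passed the filter on low counts that left 20744 genes for testing. They fall into 8 roles, namely cohesin (5 genes), chromosome axis and HORMA domain proteins (5), the synaptonemal complex core (5), break formation (6), strand exchange and repair (10), crossover formation (7), telomere attachment (4) and RNA regulators of meiotic entry (2).

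RNA was measured in whole testes of 4-month-old mice on the FVB/NJ background, with 2 mice and so 2 libraries for each of 3 genotypes, after selection of polyadenylated RNA. WT mice were unmodified FVB/NJ. P2KO mice carried a gene trap in Padi2, in which LacZ and neomycin resistance sequence took the place of part of exon 1. DKO mice carried that same Padi2 allele and, in addition, a deletion of 4 nucleotides in exon 1 of Padi4. The DKO line was made by editing P2KO embryos and is 1 homozygous line, so that P2KO and DKO share the Padi2 allele and differ in Padi4. Both alleles are present in every cell of the animal. Padi2 and Padi4 encode peptidylarginine deiminases, enzymes that turn arginine residues of proteins, histones among them, into citrulline. The study asked which genes of the testis are expressed differently when these enzymes are missing, and the same question is put here to the genes of meiotic recombination and synapsis.

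In meiotic prophase, cohesin complexes hold sister chromatids along a protein axis from which chromatin loops extend. SPO11 and its partners cut the DNA, the meiotic recombinase DMC1 helps to carry the broken ends into the homologous chromosome, and the synaptonemal complex then joins the homologous axes along their length. A few of these exchanges mature into crossovers, while the chromosome ends are tethered to the nuclear envelope. In the testis, these proteins act mostly in spermatocytes, and loss of many of them stops spermatogenesis in meiosis.

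Each library held between 21939393 and 27306679 counted reads, and libraries of 1 genotype correlated at 0.9927 to 0.9929 on the log scale, against 0.9897 to 0.9921 for libraries of different genotypes. The knocked-out genes were looked at first. Padi2 had normalized counts of 52.9 and 59.2 in WT, 88.7 and 58.6 in P2KO, and 56.5 and 88 in DKO, so it was no lower in either knockout. The count runs over the whole gene and was not split at the replaced part of exon 1, so it is no check of the trap itself, and why Padi2 RNA was not lower was not tested. Padi4 had 22.5 and 39.8 in WT, 9.76 and 10.6 in P2KO, and 3.83 and 4.24 in DKO. It was lower in DKO than in WT by a log2 fold change of -2.94 (SE 0.513, adjusted p = 2.78e-04) and stood at -1.63 in P2KO (SE 0.423, adjusted p = 0.0959), where the labels name no change in Padi4. WT, P2KO and DKO below are the libraries so labelled, and every direction given rests on those labels.

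The meiotic genes took from 0.346% to 0.365% of all counts of a library. Their levels were compared with each other only per length, as reads per kilobase of exons per 1000000 reads of the TMM-scaled library. In WT the median of the 44 levels was 6.48, against 2.77 for all tested genes, and 37 of the 44 lay above the latter. The highest was Syce1, a protein of the central element of the synaptonemal complex, with levels that averaged 206 ± 0.677 (SD, n = 2). Sycp3, which builds the lateral axis, followed at 123 ± 3.79, and Psmc3ip (HOP2), which helps DMC1 to pair DNA strands, at 90.2 ± 0.4. None of these 3 overlapped its neighbour in the order.

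The lowest levels belonged to Mei4, Prdm9 and Mei1, all in the role of break formation. Others of that role stood higher, with Spo11 at 11.9 and Ankrd31 at 9.42 in WT. Mei4, needed for break formation, averaged 0.1 and rested on 9 and 11 reads in the WT libraries, 17 and 13 in P2KO and 15 and 14 in DKO. Prdm9, the histone methyltransferase that sets where breaks are made, averaged 1.08 ± 0.00674, and Mei1, another break gene, 1.18 ± 0.0763. Prdm9 had normalized counts of 114 and 115 in WT, 134 and 160 in P2KO, and 128 and 144 in DKO. Mei1 had 143 and 131 in WT, 168 and 137 in P2KO, and 159 and 158 in DKO. For both genes the WT libraries lay below both DKO libraries, yet neither difference passed the test. Between highest and lowest the WT levels spanned 2060-fold. Ordered by WT level, 19 of the 43 neighbouring pairs overlapped between libraries, most of them between Majin at 6.59 and Tex11 at 3.37, so the order of the middle genes is not resolved by 2 mice. Levels of whole testis RNA depend on how many cells of a stage are present, and fewer cells of a type and less RNA per cell cannot be told apart. The libraries were directional, but which of STAR's strand counts were deposited is not given in the sources used here. Counts are uncertain where exons overlap a gene on the other strand (Sycp3, Rec114, Psmc3ip, Hsf2bp, Brca2, Msh4, Sun1) or on the same strand (Spata22, Ccnb1ip1), or where a near-identical copy exists (Hormad1, Mnd1, Brca2).

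**Figure D1:**
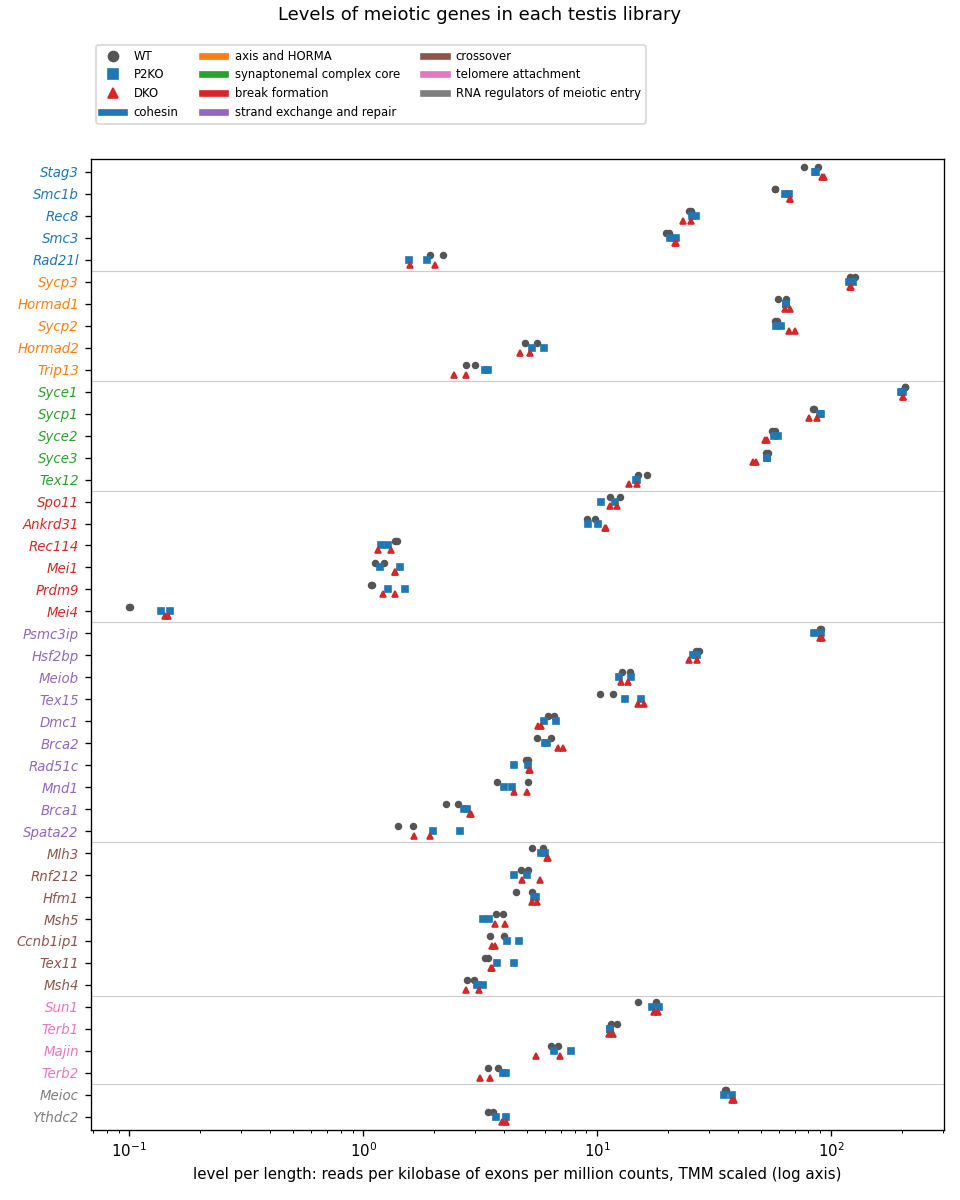
Level per length of the 44 genes in each of the 6 libraries (reads per kilobase of exons per 1000000 TMM-scaled reads, log axis), with genes grouped by role and ordered by WT level within a role; each point is 1 library. The genotypes of a gene lie close together beside the 2060-fold span between Syce1 and Mei4.

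The WT levels also showed how strongly the testis favours meiotic forms over their general partners. The ratio of Smc1b, the meiotic SMC1, to Smc1a was 35.6 ± 2.31 in WT (SD, n = 2, ratio of per-length levels), 43.2 ± 3.06 in P2KO and 37.2 ± 1.36 in DKO. Stag3, the meiotic STAG subunit, stood at 17.0 ± 0.19 times Stag1 in WT. In contrast, Rec8, the meiotic kleisin, was at 0.976 ± 0.0109 times the general kleisin Rad21 in WT and at 12.1 ± 0.854 times Rad21l, a kleisin of early prophase.

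Partners that act as a pair were often unequal. Psmc3ip exceeded its partner Mnd1 by 21.1 ± 4.57 times in WT, and Meiob, a single-strand DNA binding protein, exceeded its partner Spata22 by 8.81 ± 0.471 times. The counts of Psmc3ip, Mnd1 and Spata22 are uncertain for the overlaps and the copy named above, so the size of both ratios is uncertain too. Spo11 exceeded the gene of its topoisomerase partner TOPOVIBL (Gm960 in the annotation) by 10.4 ± 2.05 times. The crossover partners Msh4 and Msh5 were near parity, with a ratio of 0.751 in both WT libraries, 0.939 and 0.947 in P2KO, and 0.856 and 0.682 in DKO. These ratios are descriptions, and the differences between genotypes in them were not tested.

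Comparison with WT found few changed genes. In P2KO against WT, 1 of the 44 genes was called higher (2.27%) and 0 lower at an adjusted p under 0.05 (edgeR's quasi-likelihood test), beside 0.337% called among all tested genes (0.198% higher, 0.14% lower). In DKO against WT, 3 were called higher (6.82%) and 0 lower, beside 3.22% of all tested genes (2.06% higher, 1.16% lower). In DKO against P2KO, 0 of the 44 were called by edgeR on all 6 libraries, beside 1.21% of all tested genes (0.607% higher, 0.598% lower). At an unadjusted p under 0.05, P2KO against WT gave 6 of the 44 genes higher and 0 lower, beside 4.55% and 4.02% of all tested genes. DKO against WT gave 8 higher and 1 lower, beside 7.89% and 6.25%. DKO against P2KO gave 3 higher and 2 lower, beside 6.17% and 5.68%, and 1 gene, Sycp2, was called there by DESeq2, by edgeR on these 2 genotypes and by edgeR with no filter on low counts. Without the first WT library 6 of the 44 were called higher in DKO against WT, beside 3.5% of all genes tested in that fit, and without the second DKO library 1 was, beside 0.595%. Without the second P2KO library 0 were called higher in P2KO against WT, beside 0.129%. In DKO against P2KO, 1 was called higher without the first WT library, beside 1.45%, and 2 without the second, beside 1.64%. P2KO and DKO were compared with the same WT libraries.

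More of the genes lay above WT than below it, by small amounts. Both P2KO libraries lay above both WT libraries for 16 genes (36.4%) and below for 6, where all tested genes gave 18.7% above and 18.8% below. Both DKO libraries lay above both WT libraries for 18 genes (40.9%) and below for 7, beside 21.6% either way. DKO against P2KO gave 11 above and 11 below, beside 21.1% and 21.6%. The median log2 fold change of the 44 was 0.055 in P2KO against WT, 0.036 in DKO against WT and 0.007 in DKO against P2KO, beside 0.004, -0.005 and -0.003 over all tested genes.

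The intervals say how large a change could have been missed. The 95% interval of the log2 fold change had a median width of ±0.17 in each comparison. It lay within ±0.5 for 36 genes in P2KO against WT, 37 in DKO against WT and 37 in DKO against P2KO. A change of 2-fold lay outside the interval for 42, 43 and 44 genes in these comparisons. The exceptions were Mei4 and Spata22 in P2KO against WT and Mei4 in DKO against WT. For Mei4, with at most 17 reads in a library, the log2 fold changes of 0.51 in P2KO (interval -0.46 to 1.47) and 0.52 in DKO (interval -0.45 to 1.49) were not detectable at this depth, although all 4 knockout libraries lay above both WT libraries.

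**Figure D2:**
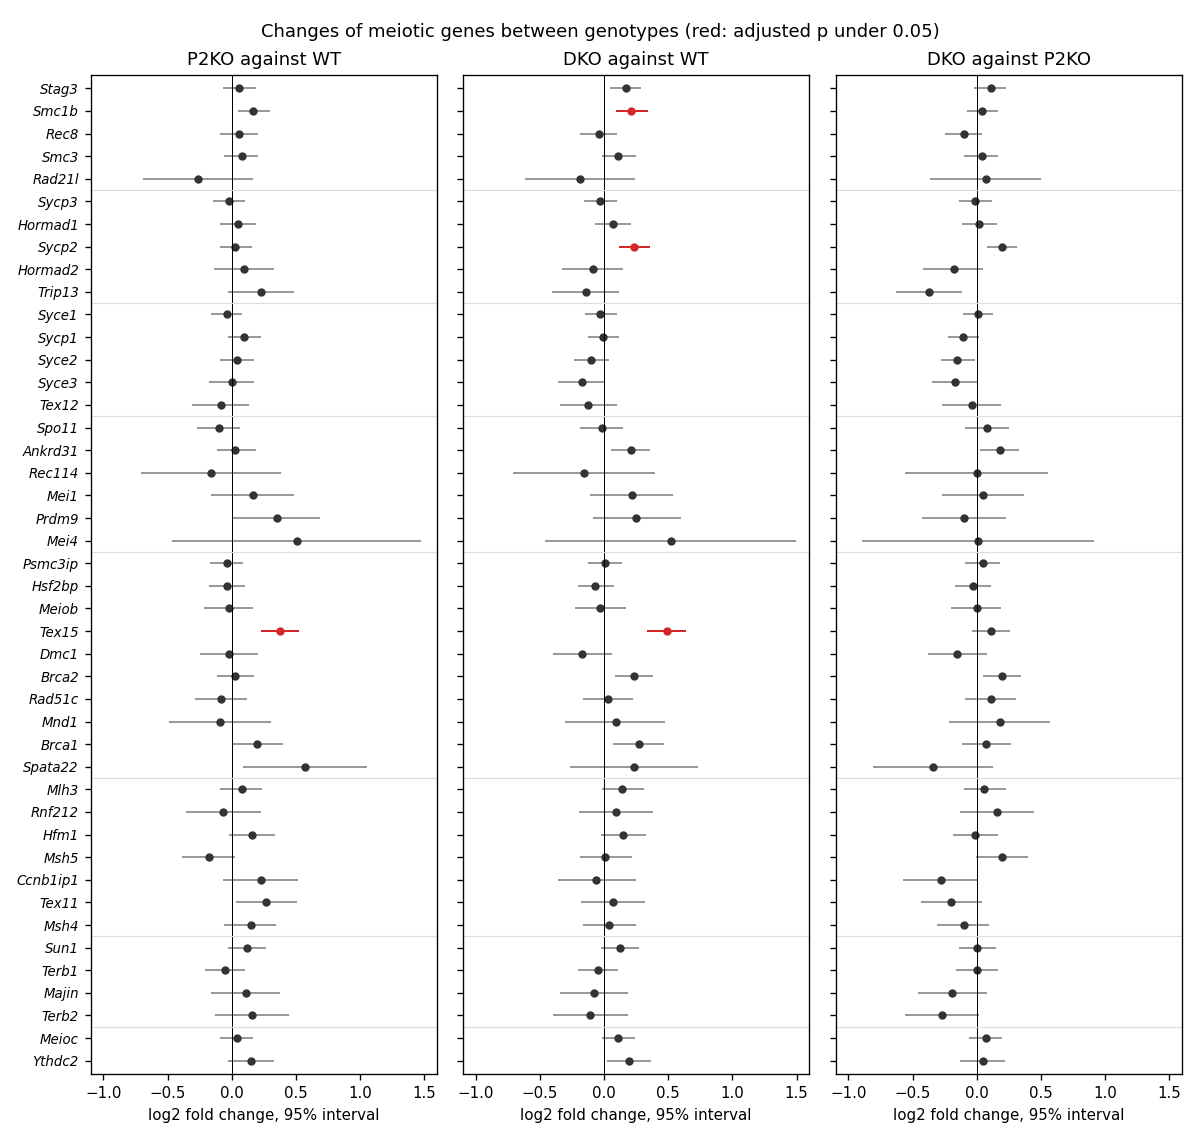
Fitted log2 fold change of each of the 44 genes with its 95% interval in P2KO against WT, DKO against WT and DKO against P2KO, with genes in the order of the plot of levels. Red marks an adjusted p under 0.05, reached by Tex15 in the first panel and by Tex15, Sycp2 and Smc1b in the second; Mei4 has the widest interval in each panel.

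Tex15 had the largest change that passed the test, and it was called in both knockouts. It is a large germ cell protein needed for meiotic recombination and for silencing of transposons. The gene lies on chromosome 8 from 33516738 to 33585582 (GRCm38, plus strand) with 9622 bases of exons. Its read counts were 2445 and 2636 in WT, 3510 and 3420 in P2KO, and 3681 and 3535 in DKO, which gave normalized counts of 2754 and 2440, 3113 and 3641, and 3526 and 3748. All 4 knockout libraries exceeded both WT libraries, and P2KO and DKO overlapped. The log2 fold change was 0.38 in P2KO against WT (SE 0.0708, adjusted p = 0.00307) and 0.49 in DKO against WT (SE 0.0707, adjusted p = 1.59e-05), a rise of 30.0% and 40.1%. DKO against P2KO stood at 0.11 with an interval from -0.03 to 0.25 (adjusted p = 0.576). Without the second P2KO library the P2KO change was 0.26 and its call was lost (adjusted p = 0.44). The DKO call held under all 16 alternatives run.

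Sycp2, a component of the lateral axis that binds SYCP3, rose in DKO. It lies on chromosome 2 from 178345293 to 178407685 (minus strand) with 5967 bases of exons. Its normalized counts were 8629 and 8422 in WT, 8904 and 8527 in P2KO, and 9710 and 10309 in DKO. Both DKO libraries lay above the other 4, while P2KO overlapped WT. The log2 fold change of DKO against WT was 0.23 (SE 0.0564, adjusted p = 0.0123), a rise of 17.4%, and that of P2KO against WT was 0.03 (interval -0.08 to 0.15). DKO against P2KO gave 0.2 (interval 0.09 to 0.31, adjusted p = 0.075), which passed with DESeq2 on all 6 libraries (adjusted p = 0.0426) and with edgeR on these 2 genotypes (adjusted p = 0.0104). It also passed without the first (adjusted p = 0.00937) or second WT library (adjusted p = 0.00689). Without the second DKO library the change from WT was 0.19 and was not called (adjusted p = 0.296).

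Smc1b, the SMC1 subunit of meiotic cohesin, was the other gene called in DKO. It lies on chromosome 15 from 85064689 to 85131964 (minus strand) with 4047 bases of exons. Its normalized counts were 5737 and 5734 in WT, 6339 and 6579 in P2KO, and 6640 and 6656 in DKO. The genotypes did not overlap, with WT lowest and DKO highest. The log2 fold change was 0.21 in DKO against WT (SE 0.0567, adjusted p = 0.0255), a rise of 15.9%, and 0.17 in P2KO against WT (SE 0.0567, adjusted p = 0.286). DKO against P2KO was 0.04, with an interval from -0.07 to 0.16. The DKO call stood near the threshold. It was lost with edgeR on these 2 genotypes (adjusted p = 0.0523), and without the second WT library (adjusted p = 0.0569), the first DKO library (adjusted p = 0.184) or the second (adjusted p = 0.219), with the log2 fold change at 0.21 in each.

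Brca2, which loads recombinases onto broken ends, fell just short. Its normalized counts were 2114 and 1857 in WT, 2007 and 2051 in P2KO, and 2395 and 2269 in DKO. Both DKO libraries lay above the other 4. The log2 fold change of DKO against WT was 0.23 (SE 0.0687, adjusted p = 0.0513), and it was called under 4 of 16 alternatives. It passed without the first WT library at 0.32 (adjusted p = 0.00207) and with DESeq2's size factors at 0.23 (adjusted p = 0.0474). Without the second WT library it was 0.14 (adjusted p = 0.57), and with an offset for gene length 0.1 (adjusted p = 0.57). DKO against P2KO was 0.2 (adjusted p = 0.169), and passed without the second WT library (adjusted p = 0.0472).

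**Figure D3:**
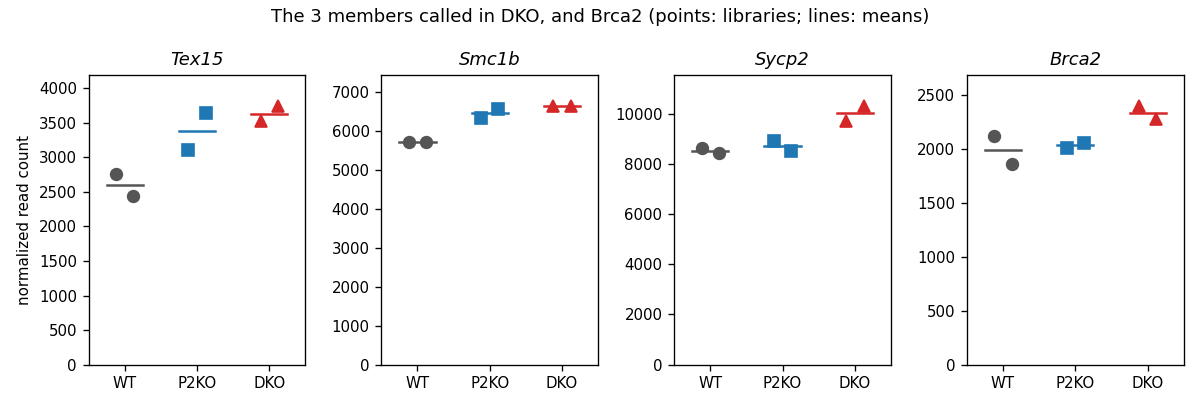
Normalized read counts of Tex15, Smc1b, Sycp2 and Brca2 by genotype; points are libraries, horizontal lines their means, and each axis starts at 0. For Tex15 all 4 knockout libraries lie above WT, and for Sycp2 and Brca2 both DKO libraries lie above the other 4.

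The promoters of called genes are shown because these are the members whose RNA differed. RefSeq windows from 250 bases before to 50 bases after the start (GRCm38.p6) were matched for 37 of the 44 genes, and Spo11, Meiob, Tex15, Tex11, Majin, Terb2 and Ythdc2 had no match. The printed stretches hold the 250 bases before the start but end where the annotated gene begins, which left out 27 of these bases for Sycp2 and 7 for Smc1b. The 50 bases after the start are not printed. They are Sycp2, chr2:178407686-178407908 (minus strand), and Smc1b, chr15:85131965-85132207 (minus strand). Capitals mark matches to the 4 motifs that were searched.
Sycp2: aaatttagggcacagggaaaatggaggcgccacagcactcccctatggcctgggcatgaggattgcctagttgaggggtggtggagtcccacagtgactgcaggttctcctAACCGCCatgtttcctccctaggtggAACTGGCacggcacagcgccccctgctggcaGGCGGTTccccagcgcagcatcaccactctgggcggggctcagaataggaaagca
Smc1b: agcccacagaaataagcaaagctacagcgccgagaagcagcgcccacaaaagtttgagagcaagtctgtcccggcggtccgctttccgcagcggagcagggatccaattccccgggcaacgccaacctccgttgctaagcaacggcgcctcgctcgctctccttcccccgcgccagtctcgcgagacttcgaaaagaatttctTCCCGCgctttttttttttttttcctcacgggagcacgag

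The first motif was AACNGNC, the core of MYB sites. The second, which the meiotic initiators STRA8 and MEIOSIN bind, was spelled CCTCAG. The E-box was searched as CACGTG. The last motif, of the E2F6 type, was TCCCGC, and both strands were read for each. None of them overlaps another in these stretches. The Sycp2 stretch held 3 matches to the MYB core, which begin 139, 113 and 82 bases before the RefSeq start. The Smc1b stretch held 1 match to the E2F6 type, at 47 bases before it, and the whole Smc1b window also held the STRA8 and MEIOSIN motif, outside the printed stretch. Across the whole windows, the E2F6-type letters were found in 25 of the 37 meiotic genes (67.6%), against 33.7% of tested genes with a window. The E-box was found in 8 (21.6% against 10.5%), the MYB core in 20 (54.1% against 38.2%) and the STRA8 and MEIOSIN motif in 16 (43.2% against 30.8%). The windows of the meiotic genes had a median GC content of 60.3%, and those of tested genes 58.7%. A match is a description of the sequence and shows no binding.

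Among the cohesin genes, Smc1b was the one called. Stag3 had normalized counts of 12326 and 10785 in WT, 11964 and 12135 in P2KO, and 13112 and 12805 in DKO, with a log2 fold change of 0.17 in DKO (SE 0.0586, adjusted p = 0.135). Smc3, the SMC partner of SMC1 proteins, was at 0.11 in DKO (interval -0.01 to 0.24) and Rec8 at -0.04 (interval -0.18 to 0.09). Rad21l had the lowest fitted value of the 44 genes in either knockout, with normalized counts of 89.0 and 78.7 in WT, 63.9 and 76.6 in P2KO, and 64.2 and 82.7 in DKO. Its log2 fold change was -0.26 in P2KO (interval -0.68 to 0.16) and -0.19 in DKO (interval -0.61 to 0.23), and DKO overlapped WT. Leaving out 1 library moved these values to between -0.39 and -0.12 in P2KO and between -0.38 and -0.02 in DKO. The summed per-length level of the 5 cohesin genes was 193 and 181 in WT, 199 and 200 in P2KO, and 208 and 205 in DKO. Stag3 and Smc1b hold most of that sum.

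Of the axis genes, Sycp2 was the one called. Sycp3 was level across the genotypes, with normalized counts of 3741 and 3907 in WT, 3703 and 3832 in P2KO and 3788 and 3709 in DKO. Its log2 fold change was -0.02 in P2KO (interval -0.14 to 0.1) and -0.03 in DKO (interval -0.15 to 0.09). The ratio of Sycp3 to Sycp2 per length was 2.12 ± 0.101 in WT, 2.04 ± 0.112 in P2KO and 1.77 ± 0.102 in DKO. Hormad1 and Hormad2, HORMA domain proteins of axes that have not yet synapsed, were at 0.07 and -0.09 in DKO against WT, and both overlapped WT. Trip13, the ATPase that takes HORMAD proteins off synapsed axes, had normalized counts of 257 and 234 in WT, 292 and 282 in P2KO, and 234 and 209 in DKO. DKO against P2KO was at -0.37, the lowest value of the 44 genes in that comparison (SE 0.123, adjusted p = 0.153, not called).

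All 5 genes of the synaptonemal complex core were below 0 in DKO against WT, and none was called. The log2 fold changes ran from -0.17 in Syce3 to -0.01 in Sycp1, with a median of -0.102. With an offset for gene length, 3 of the 5 were below 0 and the median was -0.047. Syce3, a small central element protein, had normalized counts of 728 and 716 in WT, 719 and 721 in P2KO, and 631 and 649 in DKO. Both DKO libraries lay below the other 4, and the log2 fold change of -0.17 from WT (SE 0.0844) had an unadjusted p of 0.0468 and an adjusted p of 0.344. With the offset for gene length it was -0.08 (adjusted p = 0.789). Syce2 was at -0.1 (interval -0.23 to 0.03) with both DKO libraries below both WT libraries. Tex12, its binding partner, was at -0.13 (interval -0.34 to 0.09). Sycp1, the transverse filament that spans the complex, had 7303 and 7406 in WT, 7901 and 7856 in P2KO, and 7603 and 7031 in DKO, so that DKO overlapped WT. Syce1, the highest of the 44 genes per length in WT, had normalized counts of 7400 and 7366 in WT, 7258 and 7121 in P2KO, and 7234 and 7263 in DKO. It was at -0.03 in DKO, with an interval from -0.14 to 0.09. The summed per-length level of the core was 418 and 414 in WT, 420 and 414 in P2KO, and 403 and 398 in DKO, a difference of -0.05 on the log2 scale between DKO and WT.

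**Figure D4:**
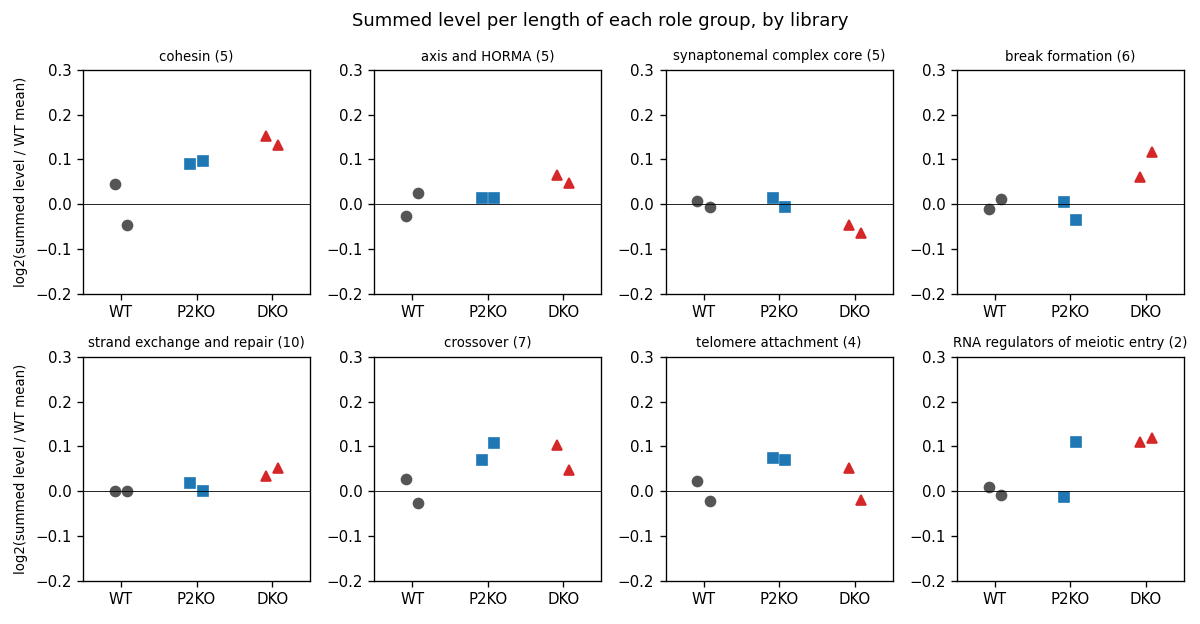
Summed per-length level of the genes of each role in each library, as log2 of its ratio to the WT mean, with the number of genes in parentheses. All sums lie within 0.2 of the WT mean; in DKO the sums of 6 roles lie above both WT libraries, that of the synaptonemal complex core lies below them and that of telomere attachment overlaps them.

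Break formation genes gave no call in any comparison. Spo11, which makes the cuts, had normalized counts of 1092 and 1207 in WT, 1141 and 999 in P2KO, and 1095 and 1175 in DKO, with a log2 fold change of -0.02 in DKO (interval -0.18 to 0.14). Ankrd31, needed for breaks in the region shared by X and Y, had 1487 and 1382 in WT, 1396 and 1535 in P2KO, and 1666 and 1640 in DKO. Both DKO libraries were above the other 4, at 0.21 from WT (SE 0.0711, adjusted p = 0.122). Prdm9 was at 0.35 in P2KO (SE 0.162, adjusted p = 0.543) and 0.25 in DKO, and Mei1 at 0.17 and 0.22. Rec114, a partner of MEI4, was at -0.16 in both knockouts, with an interval from -0.7 to 0.38 in P2KO. It rested on 35 to 46 reads a library and shares exon bases with Nptn on the other strand.

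Of the strand exchange and repair genes, Tex15 was the one called. Dmc1, the meiotic recombinase, had normalized counts of 370 and 392 in WT, 355 and 398 in P2KO, and 344 and 333 in DKO, and stood at -0.17 in DKO (interval -0.39 to 0.05). Psmc3ip had 4036 and 4011 in WT, 4049 and 3777 in P2KO, and 4011 and 4072 in DKO, with changes of -0.04 and 0.01. Hsf2bp, a partner of BRCA2, was at -0.07 in DKO, and Meiob at -0.03. Brca1, a repair protein that also acts on unsynapsed chromosomes, was at 0.2 in P2KO (SE 0.0932, adjusted p = 0.562) and 0.27 in DKO (SE 0.0931, adjusted p = 0.125). All 4 knockout libraries of Brca1 lay above both WT libraries. Rad51c, a repair gene, was at -0.08 in P2KO and 0.03 in DKO, and Mnd1 at -0.09 and 0.09.

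Spata22 had the highest fitted value in P2KO. Its read counts were 39 and 55 in WT, 70 and 76 in P2KO, and 54 and 57 in DKO, and its normalized counts were 43.9 and 50.9, 62.1 and 80.9, and 51.7 and 60.4. The log2 fold change of P2KO against WT was 0.57 (SE 0.233, adjusted p = 0.461), that of DKO against WT 0.23 (interval -0.26 to 0.72), and that of DKO against P2KO -0.34 (interval -0.8 to 0.12). None passed the test. Leaving out 1 library moved them to between 0.38 and 0.76 in P2KO against WT and between -0.53 and -0.14 in DKO against P2KO. The gene shares 1025 exon bases with Gm49340 on its own strand, so its count is uncertain.

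Crossover genes gave no call. Msh5, which with MSH4 stabilises crossover intermediates, had normalized counts of 534 and 500 in WT, 469 and 440 in P2KO, and 496 and 547 in DKO. Both P2KO libraries were below the other 4, at -0.18 from WT (interval -0.38 to 0.02), and DKO was at 0.01. Msh4 was at 0.15 in P2KO and 0.04 in DKO. Tex11, an X-linked gene of crossover formation, had 304 and 295 in WT, 331 and 394 in P2KO, and 316 and 313 in DKO, at 0.27 in P2KO (SE 0.114, adjusted p = 0.49) and 0.07 in DKO. Hfm1, a helicase, and Mlh3, of the nuclease that resolves crossovers, lay at 0.15 and 0.14 in DKO. Rnf212 and Ccnb1ip1 (HEI10), ring finger proteins that select crossover sites, lay at 0.09 and -0.06 in DKO, with intervals from -0.19 to 0.37 and from -0.35 to 0.24.

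Telomere genes and the RNA regulators gave no call. Sun1, the inner nuclear membrane protein that holds telomeres, was at 0.12 in both knockouts, with intervals from -0.02 to 0.26. Terb1, Terb2 and Majin, which tie telomeres to SUN1, were at -0.05, 0.16 and 0.11 in P2KO and at -0.05, -0.11 and -0.08 in DKO. For Terb2, both P2KO libraries lay above both DKO libraries (-0.27 in DKO against P2KO, interval -0.55 to 0.01). Meioc and Ythdc2, RNA regulators that work together to drive germ cells out of the mitotic program, were at 0.11 (interval -0.01 to 0.23) and 0.19 (SE 0.0825, adjusted p = 0.249) in DKO. For both, the 2 DKO libraries lay above the 2 WT libraries.

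A further 69 genes of cohesin regulation, recombination and meiotic entry were tested beside these. In P2KO against WT edgeR called 0 of the 69 (1 without the filter on low counts), beside 0.337% of all tested genes. In DKO against WT 4 were called higher (5.8%) and 0 lower, beside 2.06% and 1.16%. In DKO against P2KO 0 were called, beside 1.21%, while DESeq2 on these 2 genotypes called 1 and edgeR on them 2. At an unadjusted p under 0.05, P2KO against WT gave 5 higher and 5 lower, beside 4.55% and 4.02% of all tested genes. DKO against WT gave 8 higher and 1 lower, beside 7.89% and 6.25%, and DKO against P2KO 7 higher and 4 lower, beside 6.17% and 5.68%. Nipbl, which loads cohesin, had normalized counts of 11884 and 11185 in WT, 11787 and 12433 in P2KO, and 13469 and 14200 in DKO (log2 fold change 0.26 in DKO against WT, adjusted p = 0.00346). Atr, a checkpoint kinase of unsynapsed chromosomes, had 7432 and 6740 in WT, 7459 and 7935 in P2KO, and 8366 and 8943 in DKO (0.29 in DKO against WT, adjusted p = 0.00251). Mdc1, its mediator, had 7370 and 6619 in WT, 7298 and 7698 in P2KO, and 8290 and 8470 in DKO (0.26, adjusted p = 0.00642). For these 3 genes both DKO libraries lay above the other 4. Atm, the kinase that limits break number, had 279 and 268 in WT, 334 and 374 in P2KO, and 334 and 390 in DKO, so P2KO and DKO overlapped above WT. It was at 0.4 in DKO (adjusted p = 0.0474), a call lost under most alternatives, and 0.37 in P2KO (adjusted p = 0.255). Without the second DKO library all 4 calls were lost, with adjusted p of 0.147 for Nipbl, 0.146 for Atr, 0.137 for Mdc1 and 0.496 for Atm. Mdc1 was also lost without the first DKO library (adjusted p = 0.0657) or the second WT library (adjusted p = 0.125), and Atm without either WT library (adjusted p = 0.0642 and 0.251) or the first DKO library (adjusted p = 0.0594). Atr was also lost with the offset for gene length, at 0.07 (adjusted p = 0.619).

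Gene length moved with these changes. Across the 20744 tested genes the rank correlation of the log2 fold change with exon length was 0.148 in P2KO against WT, 0.292 in DKO against WT and 0.169 in DKO against P2KO. These are descriptions across genes, which share the same libraries. In DKO against WT, 5.57% of the genes in the longest quartile (exons of 5765 bases or more) were called higher, and 0.829% of those in the shortest. The longest quartile held 10 of the 44 genes, with a median log2 fold change of 0.2 beside 0.076 for all genes in it, and Tex15 and Sycp2 among the calls. All 4 called genes of the wider list also lay in it.

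Of the 8 genes above WT in DKO at an unadjusted p under 0.05, Smc1b at 4047 and Stag3 at 5733 bases were the shortest, and Brca2 at 13643 the longest. The 1 gene below WT on that criterion, Syce3, was the shortest of the 44 at 553 bases. With an offset for length in each library, the DKO changes of Tex15, Smc1b and Sycp2 were 0.4 (adjusted p = 3.12e-05), 0.22 (adjusted p = 0.0112) and 0.19 (adjusted p = 0.029), and all 3 calls held. Brca2 went to 0.1 and Syce3 to -0.08, and neither was called. The part of RNA quality or library preparation in the trend was not tested.

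**Figure D5:**
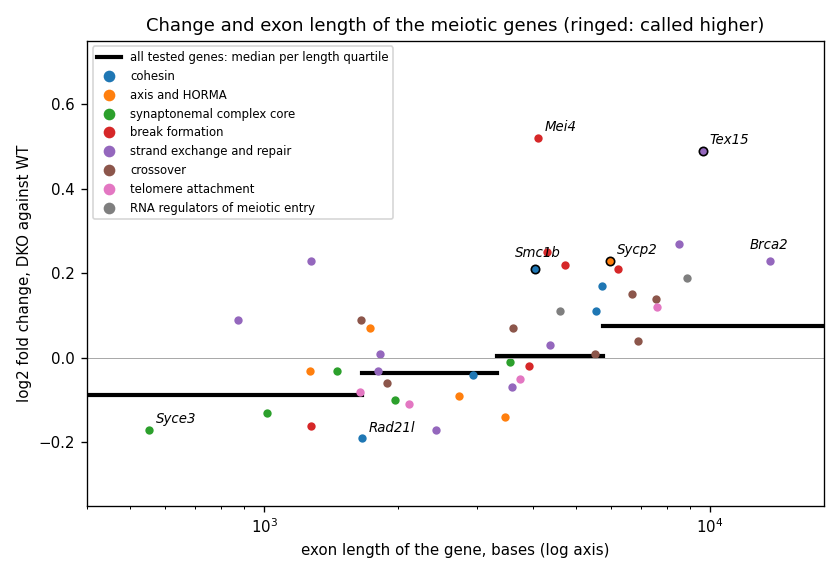
Log2 fold change of DKO against WT for the 44 genes against exon length in bases (log axis), coloured by role, with called genes ringed; black bars give the median of all tested genes in each quartile of length, drawn within the axis limits. The bars climb from -0.087 to 0.076, and the 3 ringed genes lie above the bar of their quartile.

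Cell type markers were read beside these values. Of 7 lists of 10 markers, none held a gene at 0 in all libraries. The lists for spermatogonia and for pachytene and later spermatocytes held no called gene in any comparison, and the summed per-length level of the spermatocyte list was 3275 and 3376 in WT, 3242 and 3217 in P2KO, and 3241 and 3279 in DKO. That of elongating spermatids was 24799 and 25691 in WT, 21253 and 23250 in P2KO, and 23063 and 22921 in DKO, with Tnp2 called lower in P2KO and Prm1 and Tnp1 in DKO. Leydig cell markers summed to 297 and 295 in WT, 326 and 300 in P2KO, and 370 and 315 in DKO. In that list 4 were called higher and 1 lower in DKO against WT, and 1, Hsd3b6, was called higher in DKO against P2KO. The lists for round spermatids, Sertoli cells, and peritubular, endothelial and immune cells held no called gene against WT, and 1, 1 and 0 called lower in DKO against P2KO. Ccna1, Hspa2 and Mybl1 stand in both the spermatocyte list and the list of 69. The part of cell composition in the changes of Tex15, Sycp2 and Smc1b was not tested.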

How the data were processed

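Testes of 2 mice per genotype were sequenced. The authors deposited 1 table of raw counts, the whole-number reads per Ensembl gene, without normalization. The submitters' processing notes name Trim Galore, cutadapt, STAR, DESeq2 and GRCm38, and versions are not given in the sources used here. Positions, exon lengths and overlaps came from GENCODE release M21.

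The fit used edgeR 4.0.16 in R 4.3.3. After filterByExpr (minimum count 10), libraries were scaled by TMM (factors 0.9836 to 1.017), and glmQLFit and glmQLFTest were run on all 6 libraries with a term for genotype (3 residual degrees of freedom). Benjamini-Hochberg adjustment ran over the 20744 tested genes of each comparison, and a call is an adjusted p under 0.05. Intervals are 95% intervals of the fit. A normalized count is a count scaled by its library's TMM-scaled size. Scripts were tested on simulated data. DESeq2 1.42.0, other scalings, filters, an offset for gene length, the replicate block and leaving out each library were alternatives. Values in every library were given for the called genes of the 44 and of the 69 further genes, for the 2 highest and 2 lowest log2 fold changes of each comparison, and for the 3 highest and 3 lowest WT levels. Other values given for role members, and their choice, followed after the values were seen. The members and lists were chosen with earlier results of these data known. Spo16 was not matched. The level of 1 partner gene is not reported here. With 2 libraries per genotype an exact permutation test of 1 gene cannot pass 0.05.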

Additional observations from a re-analysis of the deposited data

How the results depend on the processing

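Tex15, Sycp2, Smc1b, Nipbl, Atr, Mdc1 and Atm, the called genes for which alternatives were run, changed direction under none of them. In P2KO against WT, upper-quartile scaling took the median change of the 44 genes to 0.041 (log2). The genes called of all tested, 70 in the report, were 140 with no filter on low counts, 41 with DESeq2 on all 6 libraries and 40 with DESeq2 on the genotypes compared. Of the 69 further genes 1 was called with upper-quartile scaling or no filter. In DKO against WT, that median was 0.013 with upper-quartile scaling and 0.053 with the length offset, with or without the replicate block, and DESeq2 called 404 and 296 of all tested genes in the same order, where edgeR called 668. In DKO against P2KO, 1 of the 44 genes was called higher with no filter, with either DESeq2 fit and with edgeR on the genotypes compared. Of the 69, 1 was called with no filter or with DESeq2 on the genotypes compared, and 2 with edgeR on them. DESeq2 on all libraries called 162 of all tested genes and edgeR on the genotypes compared 579, where the report's fit called 250. The median was 0.025 with the length offset, with or without the replicate block, and -0.002 with upper-quartile scaling, so its sign is not settled. With the length offset the median of the axis and HORMA genes in DKO against WT went from -0.029 to 0.043.

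Leaving out each library in turn gave 0 to 1 of the 44 genes called higher in P2KO against WT, 1 to 6 in DKO against WT and 0 to 2 in DKO against P2KO. Their medians ran from 0.03 to 0.06, from 0.023 to 0.06 and from 0.0 to 0.018. Genes called of all tested ran from 53 to 311 (highest without the first WT library), from 250 (without the second DKO library) to 1065 (without the first WT library) and from 108 (without the second DKO library) to 622 (without the second WT library). Of the 69, 0 to 1, 0 to 4 and 0 to 2 were called.

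Same-numbered libraries showed no strong shared deviation. The correlations of their deviations from the genotype means were -0.0572 for WT and P2KO, 0.0574 for WT and DKO, and -0.0502 for P2KO and DKO. Whether same-numbered mice were paired cannot be told from these values. With the replicate block, 1, 3 and 0 of the 44 genes were called in the 3 comparisons, as without it, and 45, 555 and 189 of all tested genes. The causes of these differences were not tested. Depth limits the genes with few reads most: for Mei4 the interval in DKO against WT ran from -0.45 to 1.49, and for Rec114 in P2KO against WT from -0.7 to 0.38.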
